A study of Arabidopsis thaliana with 6 samples.

Results

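BCAT4 and UGT74B1 are a pair of genes of glucosinolate synthesis, taken from the 13356 genes that could be tied by name to a probe set of the array. A gene was a member where a probe set naming exactly 1 gene carried its symbol, and each of the 2 members was measured by 1 probe set. The study hybridised rosette RNA of cat2-2, an Arabidopsis catalase mutant in Col-0, to Affymetrix ATH1 microarrays, and 6 arrays with 3 biological replicates per group are used here. The untreated group was sampled at 0 h from plants 21 days old. The treated group was sampled 24 h later, at 22 days, from plants whose plates had been resealed with a tighter film and placed under uninterrupted light, a treatment labelled photorespiratory conditions. Both groups carry the cat2-2 mutation, which impairs the main leaf catalase, so no plant with normal catalase enters the comparison. Each replicate pooled many rosettes, plants grew on a medium with sucrose on plates that also held the double mutant shr-6 cat2-2, and that genotype was not analysed here. Resealing, continuous light and 1 more day of age coincide and cannot be told apart.

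Glucosinolates are sulfur-rich thioglucosides of the cabbage order that are stored in leaves and, after wounding, are split by myrosinases into toxic or deterrent products. Aliphatic glucosinolates of Arabidopsis start from methionine, whose side chain is lengthened before the core structure is built, and indole glucosinolates start from tryptophan. BCAT4, locus AT3G19710, is the cytosolic branched-chain aminotransferase that removes the amino group of methionine and so opens chain elongation. UGT74B1, locus AT1G24100, is the glucosyltransferase that adds the glucose to thiohydroximates late in core synthesis, before the final sulfation, and it serves both the aliphatic and the indole branch.

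Both genes were lower after the treatment, but by very different amounts. BCAT4 fell 10.6-fold, to 9.43% of its untreated level, and UGT74B1 fell 1.40-fold, to 71.6% of its untreated level. Values are RMA levels on the log2 scale, differences are treated minus untreated (n = 3 arrays each), and ± marks the standard error (SE) of a difference or the standard deviation (SD) of a group, and limma gave the p-values, adjusted by Benjamini-Hochberg across the 22746 probe sets tested. A change means an adjusted p below 0.05, and folds are the mean log2 differences turned back to the linear scale.

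The BCAT4 level in the untreated arrays was 11.42, 11.68 and 11.41 on the log2 scale, with a mean of 11.50 ± 0.16 (SD, n = 3). In the treated arrays it was 7.94, 8.20 and 8.15, with a mean of 8.10 ± 0.14 (SD, n = 3). All 3 treated arrays lay far below all 3 untreated ones, with 3.21 log2 units between the lowest untreated and the highest treated array. The difference was -3.41 ± 0.10 (SE; 95% interval -3.63 to -3.18; limma, adjusted p = 1.85e-09), which as a fold lies between 9.09 and 12.4. The probe set ranked at the 98.1st percentile of untreated means and at the 76.2nd percentile of treated means. BCAT4 thus went from among the brightest signals of the array to a signal still well above the middle, although probe sets bind with different strength and the rank is one of signal, not of transcript number.

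The UGT74B1 level in the untreated arrays was 8.76, 9.17 and 8.94, with a mean of 8.96 ± 0.20 (SD, n = 3). In the treated arrays it was 8.26, 8.47 and 8.69, with a mean of 8.47 ± 0.22 (SD, n = 3). The groups did not overlap, but only 0.07 log2 units lay between untreated replicate 1, the lowest of its group, and treated replicate 3, the highest of its group. The difference of -0.48 ± 0.13 (SE; 95% interval -0.76 to -0.21; limma, adjusted p = 0.00882) corresponds to a fold between 1.15 and 1.69. Its probe set moved from the 86.3rd percentile of untreated means to the 80.9th percentile of treated means. In whole rosettes, fewer cells that hold these transcripts and less transcript per cell cannot be told apart.

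**Figure D1:**
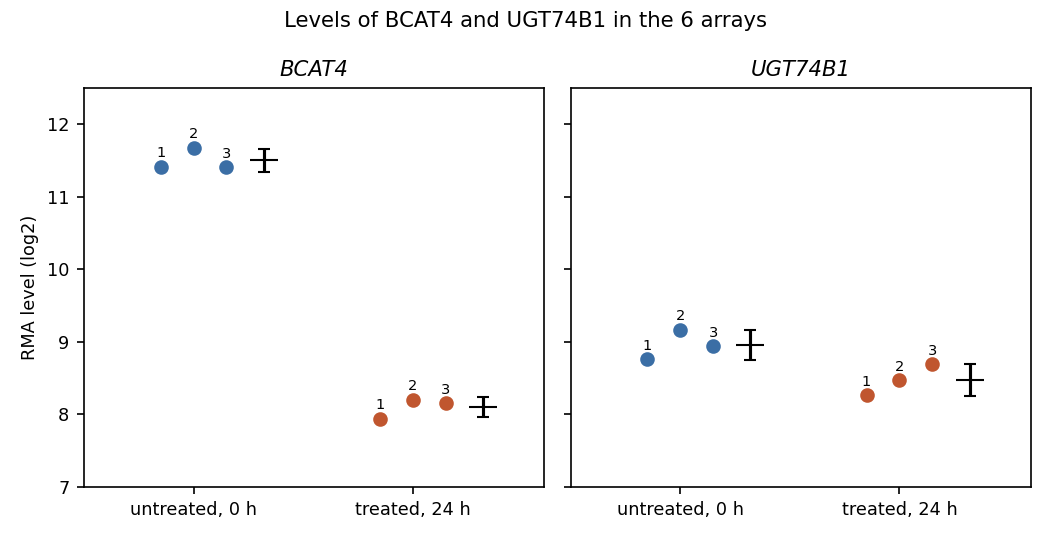
RMA level (log2) of BCAT4 and UGT74B1 in each of the 3 untreated (blue, 0 h) and 3 treated (orange, 24 h) arrays, labelled by replicate number, with the group mean and SD as a black bar. The BCAT4 arrays are 3.21 log2 units apart between groups, and the UGT74B1 arrays nearly touch at 8.76 and 8.69.

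A change as such was common in this comparison. Of the 22746 probe sets, 9479 (41.7%) changed, 22.2% lower and 19.4% higher, and for 50.8% the groups did not overlap. Counted as genes with 1 probe set each, 37.7% changed, 20.6% fell and 17.0% rose. Their groups did not overlap for 47.1%, and for 25.2% the treated arrays were the lower ones. That both members fell is therefore to be read by size. Only 5 of the 13356 genes had a larger decrease than BCAT4, and 0.112% had a larger difference in either direction. For UGT74B1, 1468 genes (11.0%) had a larger decrease and 19.8% a larger difference in either direction, so its decrease was moderate for these arrays. The split of calls moved with array scaling. Lower calls made up 53.4% of all calls in the values as deposited, 31.0% with arrays anchored on the bright poly(A) spikes, 39.9% when anchored on all hybridization controls and 26.7% when anchored on the bioC and bioD controls alone. These anchors raised each difference by 0.15, 0.11 and 0.20 on the log2 scale.

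**Figure D2:**
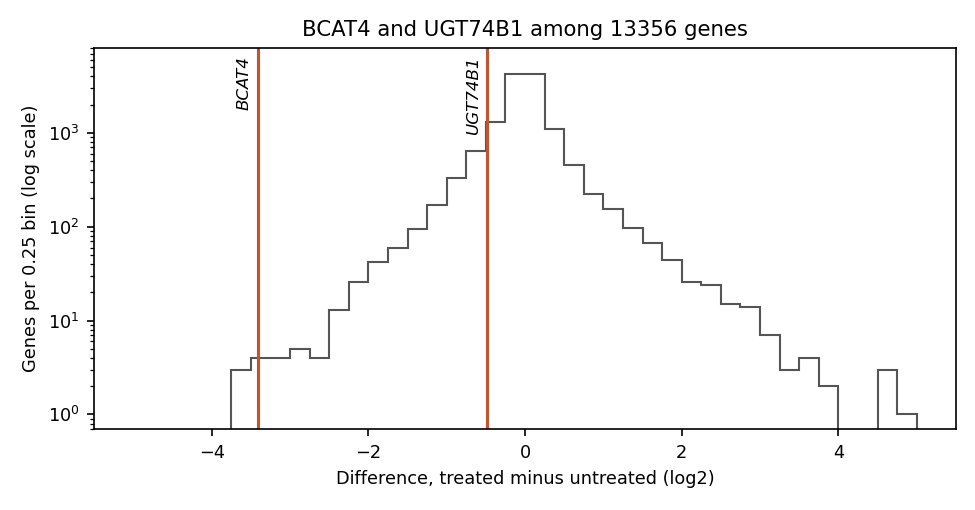
Distribution of the difference between treated and untreated arrays (log2) over 13356 genes with 1 probe set each, as the number of genes per bin of 0.25 on a log axis, with BCAT4 at -3.41 and UGT74B1 at -0.48 marked by orange lines. BCAT4 lies near the lower end, and UGT74B1 lies on the shoulder of the central peak.

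Within an array, the log2 level of BCAT4 minus that of UGT74B1 does not depend on how arrays are scaled to each other by a constant. This quantity was 2.66, 2.52 and 2.47 in the untreated arrays and -0.32, -0.27 and -0.54 in the treated arrays. The 3 treated values all lay below the 3 untreated ones. The mean moved by -2.93, a decrease of BCAT4 relative to UGT74B1 of 7.60-fold (exact permutation test, two-sided p = 0.10, n = 3 per group, which is the smallest p that 3 against 3 arrays allow). The zero of this scale has no meaning, since the 2 probe sets need not respond alike.

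The call for BCAT4 held under all 17 alternative settings, with differences from -3.46 to -3.20. The call for UGT74B1 was lost under 2 of them. Without moderation of the variances its difference stayed at -0.48 with an adjusted p of 0.113, and with arrays anchored on the bioC and bioD hybridization controls, a setting added after the data were seen, it was -0.28 (limma, adjusted p = 0.10). Leaving out single arrays gave -0.59 to -0.37, with a largest limma adjusted p of 0.0415 without treated replicate 1, where UGT74B1 was lowest.

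**Figure D3:**
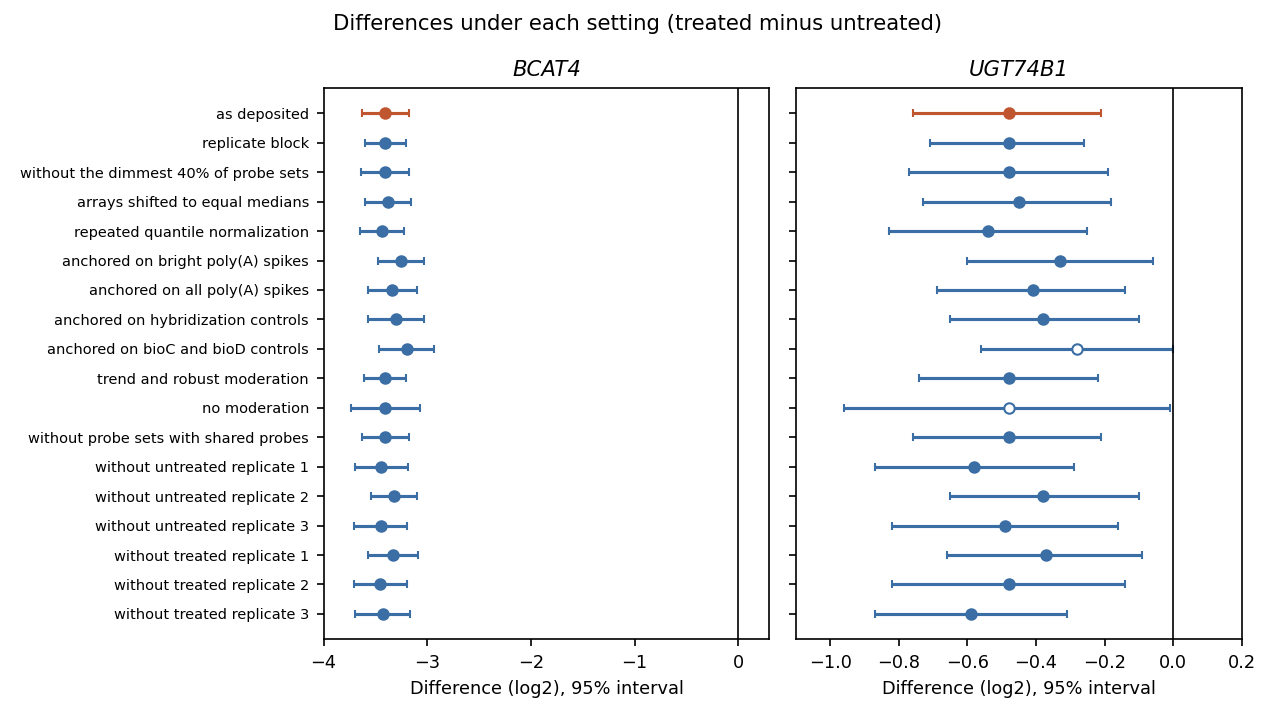
Difference between treated and untreated arrays (log2) of BCAT4 (left) and UGT74B1 (right) under each setting, with 95% intervals. Filled points pass an adjusted p of 0.05 and open points do not, the orange point is the value as deposited, and the x axes differ. BCAT4 stays between -3.46 and -3.20, and the open points of UGT74B1 are at -0.28 and -0.48.

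The other genes of the pathway were taken from 8 lists with 75 loci, of which 14 were measured by a probe set naming 1 gene. Of these, 11 carry the listed name in the gene tables, and the other 3, AT2G31790, AT2G25450 and AT1G04770, were in the lists by locus and are given by locus tag. Of the 11 named genes, 6 fell, 3 rose and 2 did not pass, against 37.7% of all genes changed in either direction. Their median difference was -0.48, beside -0.01 over all genes. With the 40% of probe sets of lowest mean dropped, 9 of 10 named genes changed, and so did 62.0% of all remaining probe sets. Without BCAT4 and UGT74B1, 4 of 9 named genes fell and 3 rose, with a median of 0.12. The pooled lists thus did not move one way. With the 3 loci included, 7 of 14 fell and 5 rose, with a median of -0.18. By list, the 1 measured locus of chain elongation was BCAT4 and the 1 of the shared core was UGT74B1, so these lists only restate the members. The 2 measured loci of the aliphatic core also fell, where 20.6% of all genes fell. The 5 rises lay in the side chain, regulator, transport and breakdown lists, each of which also held a locus that did not rise. No gene of the indole core list, and of the 10 chain elongation loci no other than BCAT4, was tied to a probe set through these tables, so the partners of BCAT4 in elongation are not analysed here.

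In the aliphatic core, GSTU20, a tau-class glutathione S-transferase assigned to the conjugation step of aliphatic glucosinolates, came closest to BCAT4. Its level was 11.70, 12.13 and 11.93 in untreated and 8.63, 8.91 and 8.86 in treated arrays. GSTU20 fell 8.70-fold (log2 -3.12 ± 0.11 SE; limma, adjusted p = 7.27e-09), and its groups lay 2.79 log2 units apart. The locus AT2G31790, which stood in both the aliphatic core list and the UGT74 list, had levels of 9.04, 9.25 and 9.05 in untreated and 8.47, 8.63 and 8.57 in treated arrays. AT2G31790 fell 1.47-fold (log2 -0.55 ± 0.09 SE; limma, adjusted p = 0.000311), and its 95% interval of -0.74 to -0.36 lies within that of UGT74B1.

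In the side chain list, AOP1, a dioxygenase gene at the AOP locus of methionine-derived glucosinolates, had levels of 7.30, 7.50 and 7.45 in untreated and 5.85, 5.89 and 5.63 in treated arrays. Whether AOP1 itself acts on side chains was not tested. AOP1 fell 3.09-fold (log2 -1.63 ± 0.09 SE; limma, adjusted p = 1.25e-07), between UGT74B1 and BCAT4 in size. Its neighbour AOP3, known for making hydroxyalkyl glucosinolates in some accessions, was dim in both groups at a mean of 4.38 and 4.50, with a difference of 0.12 (limma, adjusted p = 0.353). The locus AT2G25450 went the other way. Its level was 11.42, 11.22 and 11.47 in untreated and 12.00, 12.22 and 12.23 in treated arrays, a rise of 1.72-fold (log2 0.78 ± 0.10 SE; limma, adjusted p = 4.57e-05).

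Of the regulators, MYC3 and MYC4, closely related bHLH factors of jasmonate signalling that act with MYB factors at glucosinolate genes, moved in opposite directions. MYC4 was 6.51, 6.64 and 6.41 in untreated and 5.67, 5.87 and 5.62 in treated arrays and fell 1.74-fold (log2 -0.80 ± 0.09 SE; limma, adjusted p = 3.18e-05). MYC3 was 5.99, 6.08 and 6.26 in untreated and 6.51, 6.66 and 6.55 in treated arrays and rose 1.38-fold (log2 0.46 ± 0.09 SE; limma, adjusted p = 0.00144). Neither gene's groups overlapped, which was also so for 47.1% of all genes. The locus AT1G04770 of the same list was 8.20, 7.67 and 7.68 in untreated and 9.01, 9.05 and 9.18 in treated arrays and rose 2.34-fold (limma, adjusted p = 1.65e-05). The MYB factors of the pathway were not tied to a probe set here.

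The genes of glucosinolate transport did not follow BCAT4 down. GTR2, a plasma membrane importer that moves glucosinolates into the phloem, was 7.25, 7.30 and 7.10 in untreated and 7.96, 8.02 and 7.96 in treated arrays and rose 1.70-fold (log2 0.76 ± 0.08 SE; limma, adjusted p = 1.43e-05). Its homologue GTR1, which has the same role, was 8.77, 8.60 and 8.77 in untreated and 9.18, 9.00 and 8.74 in treated arrays. Treated replicate 3 of GTR1 lay among the untreated arrays, and the difference of 0.26 did not pass (limma, adjusted p = 0.0806). GTR1 passed without treated replicate 3 (log2 0.38; adjusted p = 0.0119) and in each of the 4 settings anchored on control transcripts (log2 0.33 to 0.47).

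The measured genes of glucosinolate breakdown split. BGLU28, a beta-glucosidase gene known to be induced by sulfur shortage, was 5.22, 4.95 and 5.15 in untreated and 6.97, 6.55 and 7.17 in treated arrays and rose 3.46-fold (log2 1.79 ± 0.14 SE; limma, adjusted p = 1.38e-06). PYK10, the main beta-glucosidase of ER bodies, which can split indole glucosinolates, was 9.80, 10.04 and 9.81 in untreated and 8.97, 8.85 and 9.19 in treated arrays and fell 1.84-fold (log2 -0.88 ± 0.10 SE; limma, adjusted p = 3.67e-05). The untreated BGLU28 mean of 5.11 lay at the 35.9th percentile, within the range of root hair marker genes in these rosettes, and it was not tested against background, which leaves its fold uncertain in size. The groups of both genes stood apart, as they did for 47.1% of all genes. The BGLU28 increase was the largest increase among the 14 measured loci.

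**Figure D4:**
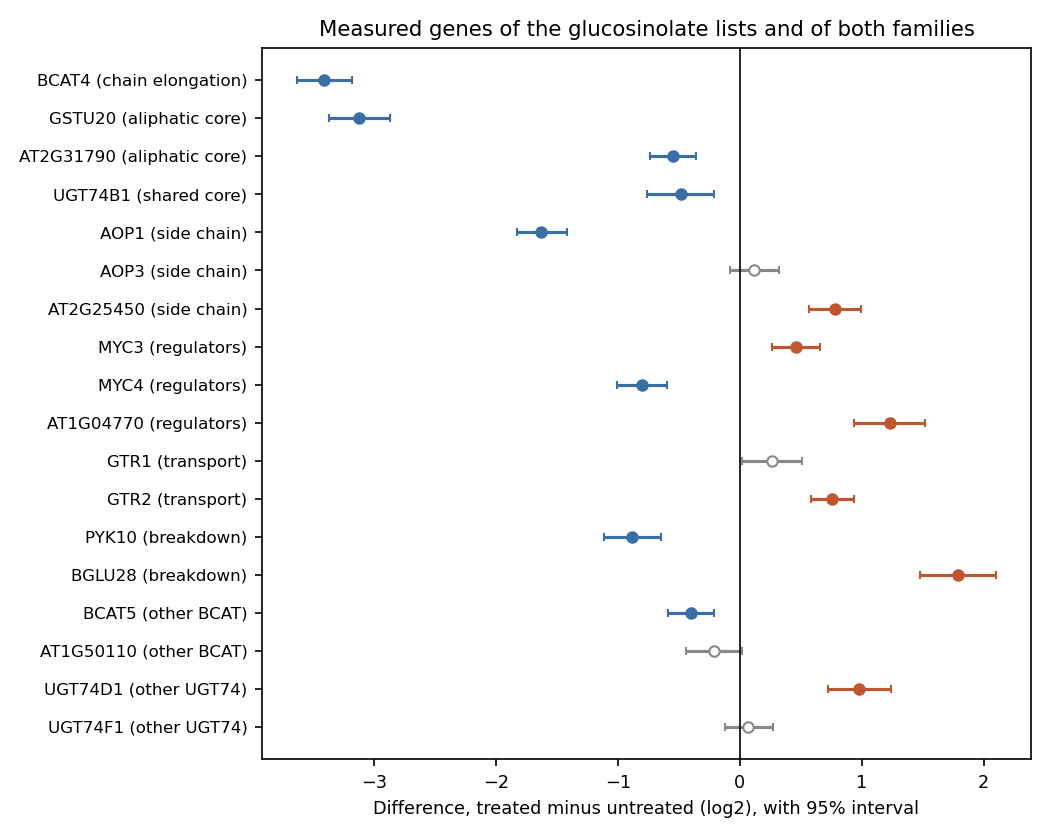
Difference between treated and untreated arrays (log2) with 95% intervals for the 14 measured loci of the glucosinolate lists and for the other measured BCAT and UGT74 genes, with the list of each in brackets. Blue points fell, orange points rose and open grey points did not pass. BCAT4 and GSTU20 lie near -3, UGT74B1 and AT2G31790 near -0.5, and BGLU28 is highest at 1.79.

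Within the aminotransferase family, BCAT5, a plastid member named ATBCAT-5 in the gene table, was 8.31, 8.26 and 8.11 in untreated and 7.85, 7.90 and 7.74 in treated arrays. BCAT5 fell 1.32-fold (log2 -0.40 ± 0.08 SE; limma, adjusted p = 0.00240). That call was lost with arrays anchored on the bright poly(A) spikes (log2 -0.25; adjusted p = 0.0578), on all hybridization controls (log2 -0.30; adjusted p = 0.0755) and on the bioC and bioD controls (log2 -0.20; adjusted p = 0.216). The list locus AT1G50110 differed by -0.21 and did not pass (limma, adjusted p = 0.135), except without untreated replicate 3 (log2 -0.32; adjusted p = 0.0198). The 95% interval of BCAT5, -0.59 to -0.21, does not reach that of BCAT4. AT1G50110, with an interval of -0.44 to 0.02, was dim in both groups. Its means of 5.37 untreated and 5.16 treated lay within the range of the root hair marker genes. AT1G50110 was not tested against background, so its interval cannot tell whether it fell as BCAT4 did. The difference between these genes was not tested further, and 4 of the 7 loci of the family were not measured.

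Within the UGT74 family, the direction differed between members. UGT74D1, a glucosyltransferase known to act on auxins, was 9.32, 8.81 and 8.97 in untreated and 9.94, 10.09 and 10.01 in treated arrays. UGT74D1 rose 1.97-fold (log2 0.98 ± 0.12 SE; limma, adjusted p = 4.21e-05), opposite to UGT74B1. UGT74F1, a glucosyltransferase of salicylic acid, was 5.39, 5.29 and 5.25 in untreated and 5.24, 5.46 and 5.46 in treated arrays, with overlapping groups and a difference of 0.07 (95% interval -0.12 to 0.27; limma, adjusted p = 0.560). The untreated UGT74F1 mean of 5.31 lay within the range of the root hair marker genes. UGT74F1 was not tested against background, so a decrease might not have shown. Of the 4 measured loci of the family, 2 fell, 1 rose and 1 did not pass, where 20.6% of all genes fell and 17.0% rose.

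The genes most like each member were sought among 1556 others with a symbol, by the Euclidean distance over the 6 arrays between log2 levels less the untreated mean. For BCAT4 these were ZW9 at a distance of 0.22, GSTU20 at 0.53, the beta-expansin gene EXPB1 at 0.59, the cold-regulated chloroplast protein gene COR15A at 0.59 and the beta-expansin gene EXPB3 at 0.75, where the median gene lay at 5.86. Their differences ran from -3.57 for COR15A to -3.00 for EXPB3. The treated mean of EXPB1, 4.72, lay within the treated range of the root hair marker genes, and that of EXPB3, 5.39, just above it. Neither was tested against background, which leaves the folds of EXPB1 and EXPB3 uncertain in size. ZW9, the nearest, was 9.86, 10.13 and 9.91 in untreated and 6.48, 6.48 and 6.71 in treated arrays, with a difference of -3.41 as in BCAT4. GSTU20 was the nearest gene that also stands in the glucosinolate lists.

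For UGT74B1 the nearest genes were GLC at 0.19, the serine carboxypeptidase-like genes scpl35 at 0.20 and scpl20 at 0.23, the aldehyde dehydrogenase gene ALDH2C4 of ferulate and sinapate synthesis at 0.24, and BIM1, a bHLH partner in brassinosteroid signalling, at 0.27. The median gene lay at 0.99, so a small decrease like that of UGT74B1 has many near neighbours. All 5 fell, with differences from -0.56 for ALDH2C4 to -0.39 for scpl35. These calls were not equally stable: scpl35 lost its call under 6 of 17 alternatives, among them without treated replicate 1 (log2 -0.31; limma, adjusted p = 0.0609) and without treated replicate 2 (log2 -0.37; adjusted p = 0.0518), GLC under 3 and scpl20 under 1. The likeness is a description of 6 arrays in 2 groups, and it is set mostly by the size of the group difference.

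**Figure D5:**
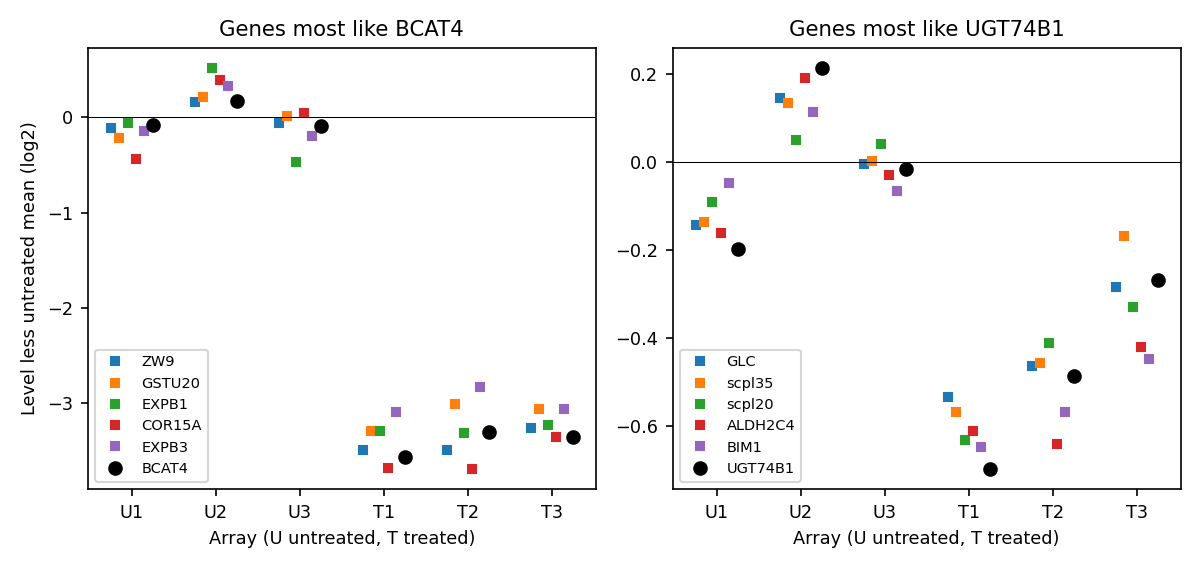
Level less the untreated mean (log2) in the 3 untreated (U1 to U3) and 3 treated (T1 to T3) arrays for BCAT4 (left) and UGT74B1 (right), as black circles, and for the 5 genes most like each, as coloured squares offset sideways. In the left panel all 6 genes lie far below 0 in treated arrays, and in the right panel the spread within groups is a large part of the difference.

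The tissue label was checked on marker genes. The 3 measured of 5 rosette leaf markers, RCA, LHCB4.1 and PSAN, had levels of 13.45 to 14.25 in untreated and 13.11 to 14.42 in treated arrays. The root hair markers EXPA7 and EXPA18 (2 of 4 measured) had levels of 4.42 to 5.75 and 4.30 to 5.28, and FMA, of guard and myrosin cells (1 of 5 measured), 5.89 to 6.14 and 6.10 to 6.23. Of these 6 genes, LHCB4.1 (log2 -0.24) and PSAN (log2 -0.27) fell and the others did not pass, a share of calls close to the 37.7% of all genes. Marker calls were not followed under the alternative settings, of which the bioC and bioD anchor raised each difference by 0.20 on the log2 scale. None of the phloem and flower markers was measured, and the part of cell composition in the decreases of BCAT4 and UGT74B1 was not tested.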

How the data were processed

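Total RNA of cat2-2 rosettes was labelled by 3' in vitro transcription and hybridised to ATH1 arrays, per the labels' protocols. The authors deposited log2 levels per probe set, and the submitters' processing notes name RMA as their source. Its version, and which arrays were normalized together, are not given in the sources used here. Array medians were 6.22 to 6.27. Groups were read from the sample titles, and the table held 0 columns of other samples. Replicates are labelled biological; whether they came from separate plates is not stated, so p-values measure the spread between these samples.

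Of 22810 probe sets, 64 were control sets, and the other 22746 were tested unfiltered. Of these, 13513 named 1 gene, 503 several and 8730 were unlisted and stayed unnamed. RefSeq names of the TAIR10.1 assembly replaced older symbols, and the probe set with the highest mean stood for a gene. The group difference was fitted in R 4.3.3 with limma 3.58.1 (lmFit and eBayes without covariates, two-sided). The contrast of both members used an exact permutation test in scipy 1.17.1, and pandas 2.3.3 and matplotlib 3.10.9 in Python 3.11.15 joined and plotted the data. The limma fit alone was tested on simulated arrays, in which far fewer probe sets changed than in these data. The median SE of a difference was 0.09, and precision is limited by the few arrays.

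The members, the gene lists, the alternatives and the rule for named genes were chosen with earlier results of these data known. The rule names both members, every measured gene of the glucosinolate, BCAT and UGT74 lists, and the 5 genes with a symbol nearest to each member. Alternatives were a replicate block, dropping the 40% of probe sets with the lowest means or those with shared probes, other array scalings (equal medians, repeated quantile normalization, and anchoring on 24 poly(A) spike sets, on the 13 of them brighter than the median probe set, or on 18 hybridization control sets), other moderation, and leaving out each array. Anchoring on the 8 bioC and bioD sets, which differed most between groups, was added after seeing the data.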

Additional observations from a re-analysis of the deposited data

How the results depend on the processing

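The difference of BCAT4 kept its direction and its call under all 17 alternatives, and that of UGT74B1 under 15. UGT74B1 did not pass without moderation (log2 -0.48; limma's linear model, adjusted p = 0.113) or when anchored on the bioC and bioD controls (log2 -0.28; adjusted p = 0.10); the first leaves the difference as it is and changes its standard error and degrees of freedom, and why those controls differed was not tested. Leaving out single arrays gave -3.46 to -3.32 for BCAT4, -0.59 to -0.37 for UGT74B1, -2.98 to -2.84 for their contrast and 8408 to 8913 changed probe sets. The count of changed probe sets ran from 7436 without moderation to 10717 when anchored on the bright poly(A) spikes, and that of changed named pathway genes from 8 to 11. With the replicate block the differences stayed at -3.41 and -0.48 (limma, adjusted p = 4.65e-08 and 0.00385) and 9190 probe sets changed. Whether the numbers pair the samples is not known, and 3 arrays per group are too few to tell. Same-numbered arrays deviated together by r = 0.07, -0.06 and 0.00 across probe sets, and not every array correlated best with its own number. Among the other genes named, scpl35 lost its call under 6 alternatives (log2 -0.39 to -0.19) and GTR1 gained one under 5. BCAT5 lost its call under 3, GLC under 3 (log2 -0.43 to -0.22) and scpl20 under 1 (log2 -0.25). AOP3 passed when anchored on the bright poly(A) spikes (log2 0.27) and on the bioC and bioD controls (log2 0.32). No difference followed under the alternatives changed sign, and the marker genes of the tissue check were not followed under them. The few arrays limit the precision, array scaling also ended calls as given above, and signal over background was not tested.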
